A study of Homo sapiens with 6 samples.

Results

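The ZNF genes of human chromosome 19 were taken as the protein-coding genes on this chromosome whose symbol is ZNF followed by a number. There were 249 of them among 20033 protein-coding genes of Gencode release 44. Their values come from poly(A) 3′-seq of IMR-32, a cell line from human neuroblastoma, in which each read begins where the poly(A) tail joins the transcript. The 6 libraries formed 3 groups of 2 replicates: cells in the solvent DMSO, and cells in 400 nM THZ531, a covalent inhibitor of the transcription kinases CDK12 and CDK13, for 2 h or 6 h. The authors called peaks once on the merged reads of their samples, here assumed to be these libraries. The resulting list of 200023 peaks has no value for a single library, no treatment and no strand, so DMSO and THZ531 could not be compared, no value has a replicate error, and the depth of each library is unknown. Genes of 1 pooled list are not replicates and no test across them was made. Shares are given with 95% Wilson intervals, which cover counting error only.

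Zinc finger proteins of this family bind DNA through a row of small zinc-coordinating loops, and many carry a KRAB domain at the other end. KRAB recruits TRIM28, which brings in the histone methyltransferase SETDB1 and HP1 proteins (CBX1, CBX3 and CBX5), so that the bound DNA is packed into silent chromatin. Many of these factors repress retroelements. Their genes arose by tandem duplication and lie in arrays, most of all on chromosome 19, and the finger row is usually coded by a single last exon. In the canonical reading frames, 245 of the 249 genes had at least 3 finger patterns (median over all 249, 12; largest 36, in ZNF208), and in 241 of these 245 all fingers lay in the last coding exon. The genes had a median length of 26.1 kb (quartiles 16.1 and 36.8 kb). The shortest was ZNF524 with 3.12 kb and the longest ZNF536 with 489 kb. There were 134 genes on the plus strand and 115 on the minus strand, and 3 were read-through genes that share exons with other members (ZNF559-ZNF177, ZNF625-ZNF20 and ZNF816-ZNF321P).

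The label of the cells was checked first. All 12 fixed markers of sympathetic neuroblastoma had a peak at a transcript end, with 19 to 123 reads at the summit, led by PHOX2A with 123 and MYCN with 100. Of 12 markers of blood, epithelium, fibroblasts, endothelium and liver, 2 had such a peak, COL1A1 with 15 reads and EPCAM with 7. Reads at the summit are the reads, each extended to 100 bp, that cover the highest point of a peak. They were solved from the deposited fold enrichment and −log10 p. The peak caller can keep repeated reads at a position only once, and the largest value on any chromosome was 189, so these heights rank sites only coarsely and are not expression levels.

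A polyadenylation signal is a hexamer, AATAAA in its canonical form, that lies shortly before the site where the transcript is cut and the poly(A) tail is added. The sequences below show, in capitals, a signal hexamer from the 100 bp before the 3′ edge of the tallest transcript-end peak, for the members with the most reads there. Each is 30 bases of the gene strand in build GRCh38, 5′ to 3′.
ZNF302: aatttggcatctAATAAAatcattttgtat
ZNF253: ttcaaaaatcatAATGAAttattttattaa
ZNF146: ttaatctattttATTAAAatttaaaaggac
ZNF493: ttaatatagtaaAAGAAAaagagtaaaaaa
ZNF569: taatatttctttAATAAAagagtgaaagca
ZNF480: ccttgaacctaaAATAAAacatgaaaaaaa
ZNF69: tcataggaggctAATAAAtttgtgtaaatt
ZNF382: tttttttaaataAATAAAaatccctagctc
ZNF17: ttttaaaggctgAATAAAattctgttagtc

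The ZNF302 stretch lies at chr19:34686359-34686388 on the plus strand, 23 bp before the 3′ edge of its peak, counted from the first base of the signal. In ZNF569, on the minus strand, it lies at chr19:37411159-37411188. ZNF480 has its signal 33 bp before the edge and ZNF69 28 bp before it, whereas the hexamers of ZNF146, ZNF569 and ZNF493 lie farther off, 79, 76 and 68 bp before it. The AAGAAA shown for ZNF493 was no more frequent before the members' transcript-end peaks (11.6%) than on the opposite strand of the same places (12.8%). The remaining member of the 10 tallest, ZNF580, held none of the 12 signal hexamers listed by the study in the 100 bp before the edge. Over the 215 members with a transcript-end peak, 184 (85.6%, interval 80.3 to 89.7%) had at least 1 of the 12 hexamers before their tallest one, and 130 (60.5%, interval 53.8 to 66.8%) had one on the opposite strand of the same places, which serves as the background. The canonical AATAAA was there in 120 of 215 (55.8%) and on the opposite strand in 35 (16.3%). It lay at a median of 27 bp before the edge (quartiles 23 and 32 bp). The opposite strand is only a rough background. Of the 415 transcript-end peaks of members, 21.4% lay where genes of both strands could claim them.

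All but 34 of the members had a peak at an annotated transcript end, defined as 200 bp upstream to 600 bp downstream of it. This was 215 of 249 genes (86.3%, interval 81.5 to 90.1%), against 67.2% of all protein-coding genes. Of the 1118 other chromosome 19 protein-coding genes within the members' range of length, 707 had such a peak (63.2%, interval 60.4 to 66.0%). In the 4 classes set by the quartiles of member length, the share was 87.1%, 87.1%, 83.9% and 87.3% in members and 60.8%, 62.8%, 68.0% and 67.3% in the other genes. ZNF genes of other chromosomes within the same range of length were close to the members, with 219 of 258 (84.9%, interval 80.0 to 88.7%).

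The order depended on the peaks' own strength. With −log10 q of at least 5, 208 members (83.5%) and 662 other genes (59.2%) still had a transcript-end peak. With −log10 q of at least 20, 52 members did (20.9%, interval 16.3 to 26.4%), fewer in share than the other genes (292, 26.1%, interval 23.6 to 28.8%) and than ZNF genes of other chromosomes (82, 31.8%). The members were thus found often and at modest height. Another gene could also claim 702 of the 1759 member peaks (39.9%) and 34.2% of the 4377 peaks of other chromosome 19 genes. At transcript ends the shares were 37.6% in members and 44.3% in the other genes. Without these peaks, 132 members (53.0%) and 379 other genes (33.9%) kept a transcript-end peak.

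The tallest transcript-end peak of a member had a median of 20 reads (quartiles 14 and 25, range 5 to 42, n = 215 genes). In the other chromosome 19 genes the median was 24 reads (quartiles 15 and 34, largest 81, n = 707) and in ZNF genes of other chromosomes 21 reads (quartiles 15 and 32.5, largest 61, n = 219). No member passed 42 reads. When peaks that another gene could claim were left out, the medians were 19 reads in members and 20 in other chromosome 19 genes.

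**Figure D1:**
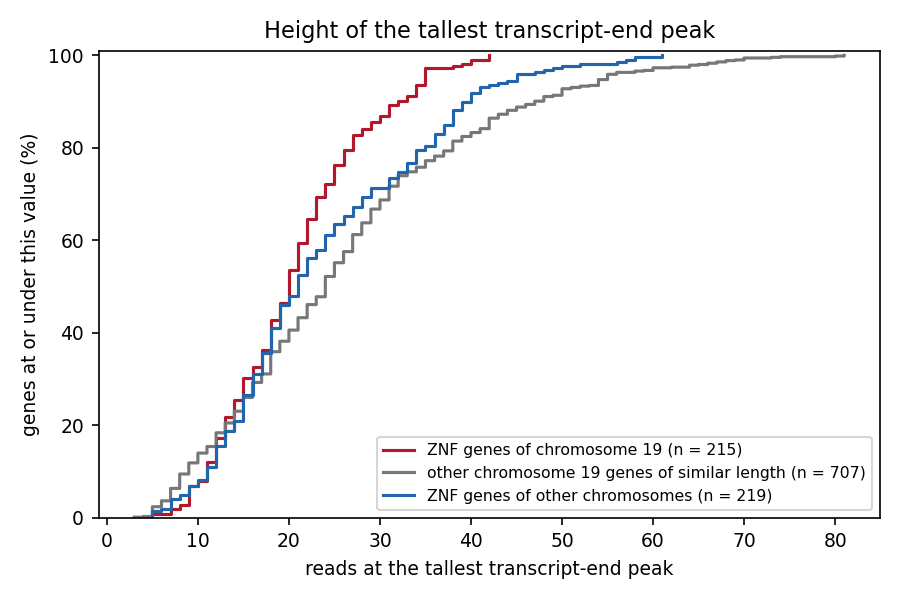
Cumulative share of genes (y axis, %) by reads at their tallest transcript-end peak (x axis), for 215 ZNF genes of chromosome 19, 707 other chromosome 19 genes of similar length and 219 ZNF genes of other chromosomes. The members' line ends at 42 reads, while the other lines reach 81 and 61.

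The members with the most reads were ZNF302 and ZNF580 with 42 each, ZNF253 and ZNF146 with 40, ZNF493 with 39, ZNF569 with 38, and ZNF480, ZNF69, ZNF382 and ZNF17 with 35. ZNF146 is unusual among zinc finger genes in coding for little more than its 10 fingers. In 8 of these 10 genes, all except ZNF493 and ZNF69, the tallest peak lay at the end of the canonical transcript. In ZNF493 it lay inside the first intron of the canonical transcript, at the end of a shorter annotated transcript, and the canonical end had 11 reads. In ZNF69 the canonical end had 18 reads. Another gene could also claim the tallest end peaks of ZNF580, ZNF253, ZNF146, ZNF480, ZNF382 and ZNF17.

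Members with a known role lay within the same range. ZNF91, which represses SVA retrotransposons, had 21 reads at its tallest end peak, and ZNF93, which represses LINE-1 elements, had 25. ZNF417 and ZNF587, related repressors of HERV-K proviruses, had 33 and 30. ZNF274, which brings SETDB1 to the 3′ exons of other zinc finger genes, had 20. ZNF473, a component of histone pre-mRNA 3′ end processing, had 22. ZNF331, an imprinted gene, also had 22, and it had the most transcript-end peaks of any member, 8. ZNF420, a regulator of p53, had 33, ZNF224 had 22, ZNF350, a partner of BRCA1, had 13, and ZNF649 had 14. ZNF154, known for promoter methylation in tumours, had 23. ZNF43 had 20. ZNF208, the member with the most fingers, had no peak at all. Another gene could also claim the tallest end peaks of ZNF417, ZNF587, ZNF473, ZNF420, ZNF224, ZNF350, ZNF649 and ZNF154.

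Many members had more than 1 transcript-end peak, and several of these peaks can lie at the same annotated end, as in ZNF17 and ZNF569. Among the 215, 90 had 1 transcript-end peak, 78 had 2, 32 had 3 and 15 had more. Of the 417 pairs of a member and a transcript-end peak, 195 lay at the end of the canonical transcript (46.8%, interval 42.0 to 51.6%). In other chromosome 19 genes this was 691 of 1213 (57.0%, interval 54.2 to 59.7%), and in ZNF genes of other chromosomes 197 of 448 (43.97%). A further 112 member pairs lay in canonical exons, 71 in canonical introns and 39 past the canonical end. The canonical end itself had a peak in 175 members.

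The 5 genes with no peak of any kind, ZNF208, ZNF676, ZNF729, ZNF723 and ZNF728, all lay in the array between ZNF101 and ZNF254, chr19:21932958-23003176. That stretch of 1070 kb held 9 members and no other protein-coding gene, and 2 of the 9 (ZNF257 and ZNF492) had a transcript-end peak. Its borders are those of the first and the last member without a peak, so its peak density is no separate result. It held 24 peaks, and the tallest, in ZNF98, had 26 reads. The members of this stretch that had peaks were ZNF492 with 8, ZNF257 and ZNF98 with 3 each and ZNF99 with 1. Reads with more than 20 placements were not kept by the authors, and the part of such reads in the absence of peaks was not tested.

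**Figure D2:**
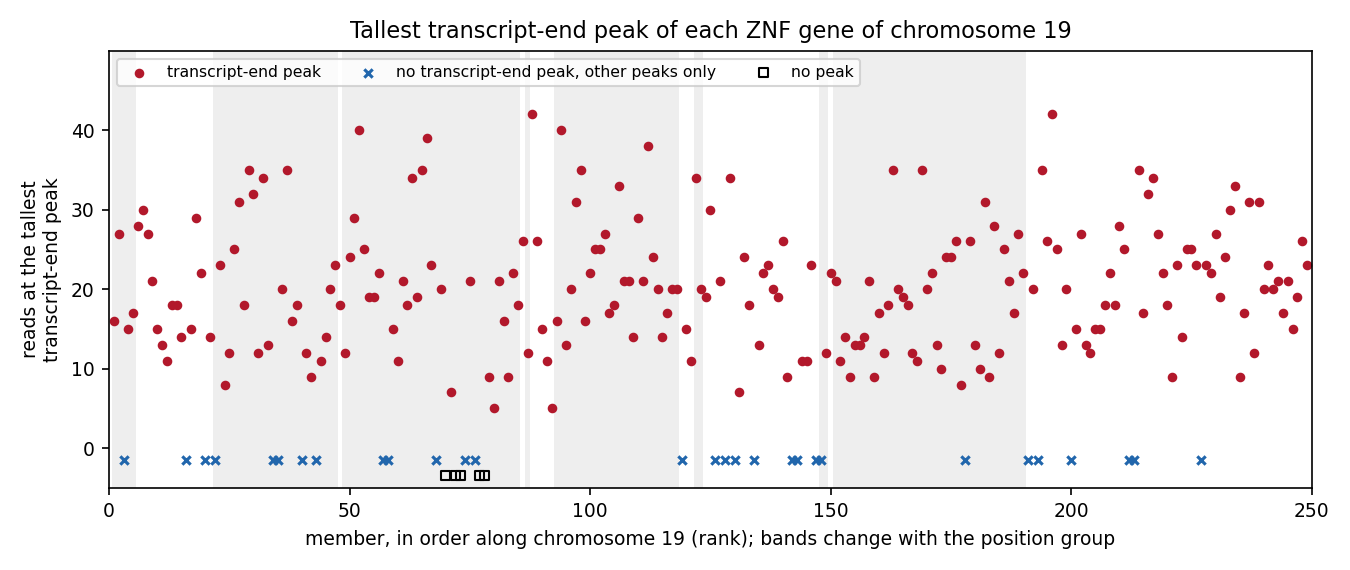
Reads at the tallest transcript-end peak (y axis) for each of the 249 ZNF genes in order along chromosome 19 (x axis, rank), with grey and white bands for groups of members separated by more than 1 Mb. Crosses below 0 are members with other peaks only, and open squares the 5 members with no peak, which stand close together.

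When members separated by more than 1 Mb were put in different groups, there were 16 groups, of which 7 held 16 or more members. In the array between ZNF101 and ZNF254 (37 members), 27 had a transcript-end peak (73.0%), with a median of 20 reads. The array from ZNF565 to ZNF573 had 26 of 26. The array from ZNF175 to ZNF331 had 39 of 40 and that from ZNF628 to ZNF446 53 of 59 (89.8%). The array from ZNF575 to ZNF296 had 17 of 24 (70.8%). The median height was 18 to 22 reads in all 7 of these groups, while the share of members found ran from 70.8% to 100%.

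The other 29 members without a transcript-end peak had peaks elsewhere in the gene. ZNF100 had 13, 10 of them intronic, and its tallest intronic peak had 40 reads. ZNF582 had 5 intronic peaks, the tallest also with 40 reads. ZNF112 had 11 peaks and ZNF547 had 5. Another gene could also claim every peak of ZNF582, ZNF112 and ZNF547, but only 1 of the 13 of ZNF100. ZNF524, the shortest member, had a single peak, past its last annotated end, with 15 reads.

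Introns held the largest class of peaks in these genes. Each summit was placed in the order transcript end, past the end (up to 4000 bp), exon and intron. The 1759 member peaks comprised 415 at transcript ends (23.6%, interval 21.7 to 25.6%), 147 past the end (8.36%), 223 in exons (12.7%) and 974 in introns (55.4%, interval 53.0 to 57.7%). In other chromosome 19 genes, 25.3% of 4377 peaks lay at transcript ends and 57.8% in introns, and in ZNF genes of other chromosomes 17.9% and 64.1% of 2483. Exonic peaks away from annotated ends took a larger share in members than in other chromosome 19 genes (7.63%, interval 6.88 to 8.46%), and nearly the same share as in ZNF genes of other chromosomes (12.5%). Transcript-end peaks of members had a median of 16 reads and intronic peaks 13.

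Intronic peaks were found in 225 members (90.4%), against 68.6% of all protein-coding genes with an intron. The median was 3 per gene and the mean 4.50. The number rose with length, with a median of 1, 3, 5 and 8 in the 4 length classes against 0, 2, 3 and 7 in other chromosome 19 genes. Spearman's rho between length and number of intronic peaks was 0.72 across the 249 members, which is a description across genes of 1 pooled list.

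Per kb of intron, members had 0.218, 0.198, 0.193 and 0.153 intronic peaks from the shortest to the longest class, and other genes 0.127, 0.127, 0.132 and 0.130. Weighted alike over the classes, this was 0.190 against 0.129, or 1.48 times as many. ZNF genes of other chromosomes had 0.174. Among genes with a transcript-end peak, an alternative chosen after seeing the data, the values were 0.193 in members, 0.161 in other chromosome 19 genes and 0.191 in ZNF genes of other chromosomes. When peaks that another gene could claim were left out, members had 0.0939 and other chromosome 19 genes 0.0723. In that setting ZNF genes of other chromosomes had 0.1199. Peaks were left out there, but the intron bases shared with other genes stayed in the divisor. Another gene could claim 37.1% of intronic peaks in members, 26.2% in other chromosome 19 genes and 20.9% in ZNF genes of other chromosomes. The values of this setting therefore do not rank the groups by density.

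**Figure D3:**
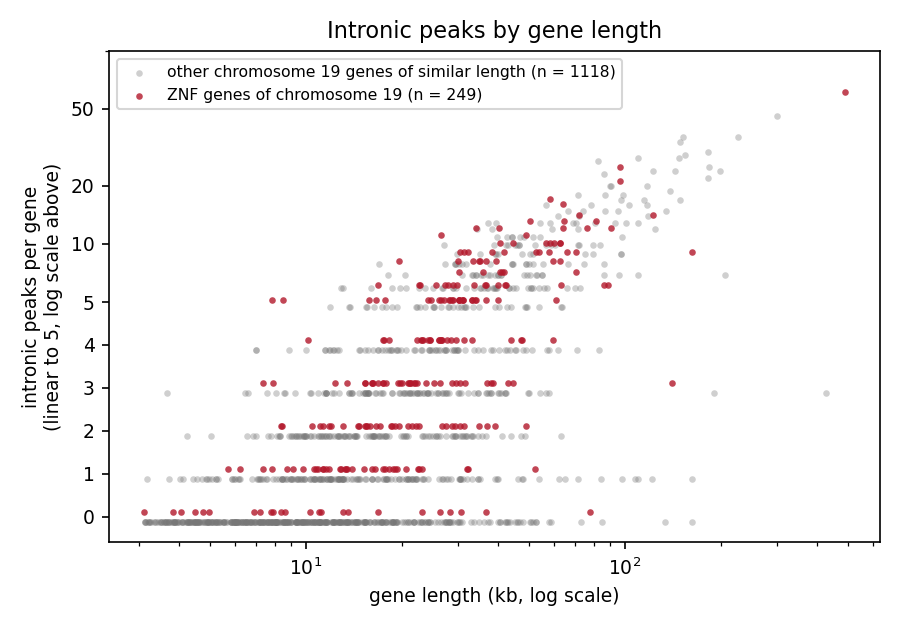
Intronic peaks per gene (y axis, linear to 5 and logarithmic above, points of the groups shifted slightly apart) by gene length (x axis, kb, log scale) for 249 ZNF genes and 1118 other genes of chromosome 19. ZNF536, with 489 kb and 61 intronic peaks, stands at the upper right.

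The most intronic peaks were in ZNF536, a regulator of neuronal differentiation, with 61, followed by ZNF254 with 25, ZNF83 with 21, the read-through gene ZNF559-ZNF177 with 17 and ZNF490 with 16. Per kb of intron ZNF536 was not high (0.128), and ZNF254 had 0.281. Over all classes, another gene could also claim 15 of the 28 peaks of ZNF254 and 18 of the 26 of ZNF83. The tallest intronic peak of ZNF536 had 22 reads, less than the 26 of its tallest transcript-end peak. In ZNF254 the tallest intronic peak had 33 reads, against 18 at its tallest transcript-end peak. This ZNF254 intronic peak could also be claimed by another gene, and 95 bases around its summit matched another place in the genome.

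By these coarse heights, an intron held the tallest peak of the gene more often in members than in other genes. Repeated reads at a position may have been counted only once. The effect of this on the order of ends and introns within a gene was not tested. Among the 215 members with a transcript-end peak, the tallest peak was intronic in 89 (41.4%, interval 35.02 to 48.1%) and at a transcript end in 85 (39.5%, interval 33.2 to 46.2%). In other chromosome 19 genes it was intronic in 154 of 707 (21.8%, interval 18.9 to 24.97%), and in ZNF genes of other chromosomes in 75 of 219 (34.2%, interval 28.3 to 40.8%). Weighted alike over the length classes, the shares were 41.3%, 25.2% and 33.4%. Without peaks that another gene could claim they were 41.7%, 24.8% and 34.8% (not weighted). Examples were ZNF43, with 39 reads in its first intron against 20 at its end, ZNF714 with 39 in its second intron against 18, ZNF274 with 32 against 20, and ZNF91 with 30 against 21. The ZNF43 intronic peak had none of the 12 hexamers before its edge, while those of ZNF714, ZNF274 and ZNF91 had at least 1.

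**Figure D4:**
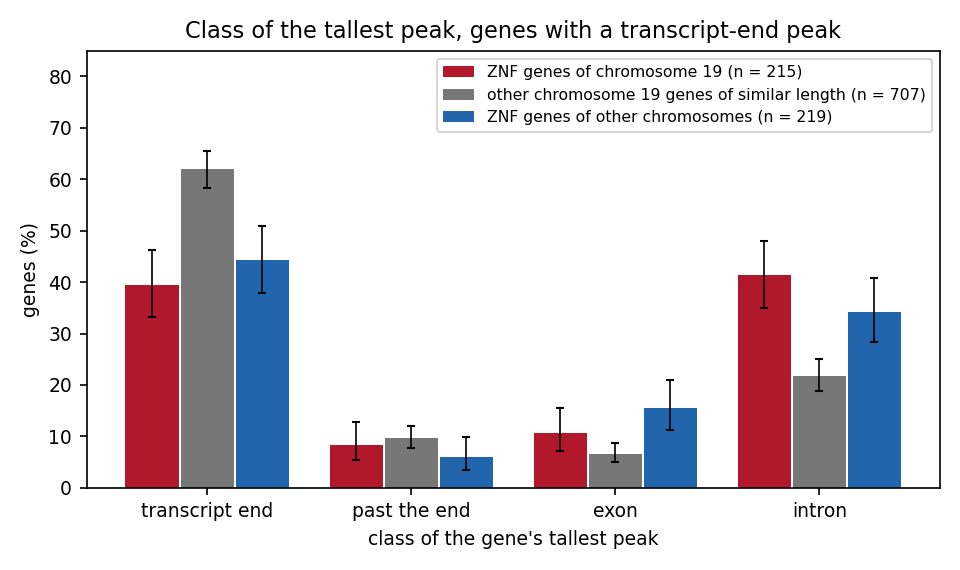
Share of genes (y axis, %) by the class of their tallest peak (x axis), for genes with a transcript-end peak in the 3 groups, with 95% Wilson intervals as error bars. Intronic and transcript-end peaks lead in about equal shares of ZNF genes of chromosome 19 (41.4% and 39.5%), whereas the end leads in 62.0% of other chromosome 19 genes.

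The first intron of members held more peaks than its share of the intronic bases. Of 772 intronic peaks in members with at least 2 canonical introns, 353 were in the first intron (45.7%, interval 42.2 to 49.3%), which held 36.5% of the intronic bases on average, weighted by peak. The last intron had 161 (20.9%, interval 18.1 to 23.9%) with 29.4% of the bases. In other chromosome 19 genes the first intron had 34.6% of peaks and 29.1% of bases.

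Signals were fewer before intronic peaks than before transcript ends. At least 1 of the 12 hexamers lay in the 100 bp before the 3′ edge in 330 of 415 transcript-end peaks (79.5%, interval 75.4 to 83.1%) and 530 of 974 intronic peaks (54.4%, interval 51.3 to 57.5%). On the opposite strand of the same places it was 55.4% and 36.4%. For AATAAA alone the shares were 47.5% and 25.98%, and 14.2% and 11.1% on the opposite strand. Other chromosome 19 genes had a hexamer at 67.2% of transcript ends (opposite strand 37.1%) and 39.5% of intronic peaks (26.3%). The share of members was thus higher on both strands than in other chromosome 19 genes. ZNF genes of other chromosomes had a hexamer at 81.8% of transcript ends (opposite strand 56.9%) and 57.8% of intronic peaks (40.8%). Each of these shares was slightly above that of the members.

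Intronic peaks can also arise where the primer binds a stretch of A in the RNA. Such a stretch (22 or more A among 25 bases, within 50 bp after the 3′ edge) followed 50 of 974 intronic peaks (5.13%, interval 3.92 to 6.70%) and 2 of 415 transcript-end peaks (0.482%). In other chromosome 19 genes, 6.56% of intronic peaks had it (interval 5.66 to 7.59%). The following lines show the 30 bases after the tallest such peak of ZNF536 and ZNF254, with A in capitals.
ZNF536: AAAAAAAAAAAAAAAAAAAAgAAtAttAtt
ZNF254: AAAAAAAAAAAAAAAAAAAAgAAtAttctg

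They lie at chr19:30331302-30331331 and chr19:24069608-24069637, both on the plus strand and both after intronic peaks, of 15 and 11 reads. With the looser limit of 18 A in 25 bases, 211 intronic member peaks (21.7%) and 25.8% of those in other chromosome 19 genes had a stretch. The peak of 39 reads in the second intron of ZNF714 was among the 211, with 19 A. The part of such priming in the intronic peaks was not tested.

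The last coding exon, with the finger row, held few peaks. In members with a transcript-end peak, 36 peaks fell in 329 kb of its coding part, or 0.110 per kb. Introns had 0.199 per kb and the last exon after the stop codon 0.756 per kb. Other chromosome 19 genes had 0.134, 0.170 and 1.13 per kb in these regions, and ZNF genes of other chromosomes 0.164, 0.176 and 0.763. The finger exons also held signal hexamers. AATAAA occurred 0.314 times per kb in the members' last coding exons against 0.0185 in other chromosome 19 genes, and the variant TATAAA 0.798 times against 0.0417. ZNF genes of other chromosomes had 0.424 AATAAA and 0.703 TATAAA per kb there. The base A made up 32.8% of the last coding exons in members and 19.5% in other chromosome 19 genes. Elsewhere in members, AATAAA occurred 0.699 times per kb in introns and 1.18 times per kb after the stop codon. Peaks per AATAAA were 0.350 in the members' last coding exons, 0.284 in their introns and 0.639 after the stop codon.

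**Figure D5:**
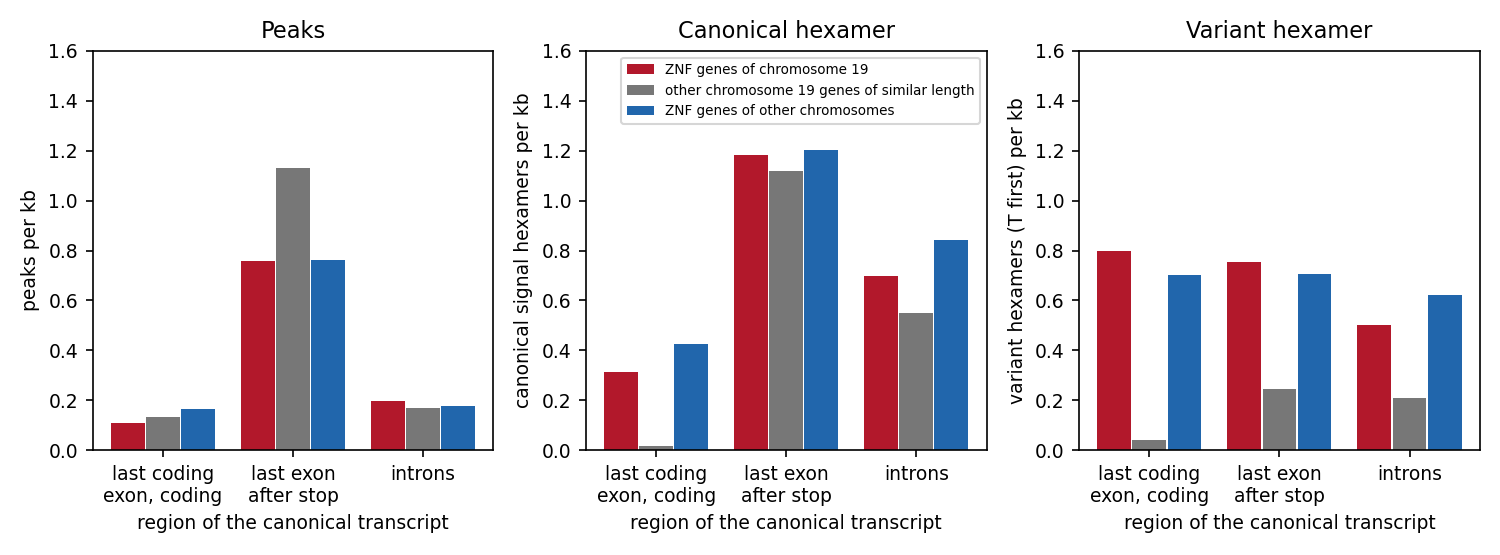
Peaks per kb, canonical AATAAA hexamers per kb and variant TATAAA hexamers per kb (y axes) in the coding part of the last coding exon, the last exon after the stop codon and the introns (x axes), for genes with a transcript-end peak in the 3 groups. The members' finger exons had 0.798 TATAAA per kb and 0.110 peaks per kb.

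The variant sits in the finger code itself. Of the 302 TATAAA in the last coding exons of all 249 members, 279 (92.4%) were in the reading frame, where TAT and AAA code for tyrosine and lysine. In 85 (28.1%) it followed GAAACC and 1 further base, which belong to the linker between fingers. The next lines show 84 bases, the length of a finger with its linker, from the members with the most TATAAA, ZNF112 with 8 and ZNF229 with 7 (tied with ZNF791).
ZNF112: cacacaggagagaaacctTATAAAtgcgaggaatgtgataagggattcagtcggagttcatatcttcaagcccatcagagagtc
ZNF229: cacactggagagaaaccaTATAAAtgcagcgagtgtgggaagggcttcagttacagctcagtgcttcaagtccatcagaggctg

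These stretches lie on the minus strand at chr19:44328453-44328536 and chr19:44429503-44429586, and capitals mark TATAAA. They were chosen after the hexamers had been counted. ZNF112 had no transcript-end peak and 1 peak in coding sequence, and ZNF229 had 11 reads at its end and none in coding sequence.

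In all, 34 members had a peak in a coding exon away from annotated ends (13.7%, interval 9.94 to 18.5%), against 16.9% of all protein-coding genes. The share was 5.01% in other chromosome 19 genes (interval 3.88 to 6.45%) and 20.5% in ZNF genes of other chromosomes (interval 16.1 to 25.9%). ZNF568 had 3, ZNF714 and ZNF814 had 2 each, and 31 had 1. The 3 of ZNF568 had 9, 9 and 7 reads, and those of ZNF714 had 9 and 10. Around the summits of the ZNF714 peaks, 99 and 91 of 100 bases matched another place in the genome. The 2 of ZNF814 had 12 and 19 reads, and all 100 bases around each summit also occurred elsewhere in the genome. Another gene could also claim these peaks of ZNF568 and ZNF814, but not those of ZNF714.

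Near-identical copies were counted because the authors kept reads with up to 20 placements. For 190 of the 1759 member peaks (10.8%, interval 9.44 to 12.3%), the 100 bases around the summit matched another place in at least 95 bases, against 9.002% (interval 8.19 to 9.89%) in other chromosome 19 genes. For 98 (5.57%) such a place lay in or near a zinc finger gene, which could be the same gene. The share was 7.23% at transcript ends (interval 5.11 to 10.1%) and 14.2% in introns (interval 12.1 to 16.5%). In other chromosome 19 genes it was 5.42% and 10.5%. Without these peaks, 208 members had a transcript-end peak.

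The region from 600 to 4000 bp downstream of the last annotated end was searched in genes with a transcript-end peak and no other gene in that region. Peaks were found there in 29 of 84 members (34.5%, interval 25.2 to 45.2%), against 23.0% of all protein-coding genes. Other chromosome 19 genes had 58 of 206 (28.2%, interval 22.5 to 34.7%), and ZNF genes of other chromosomes 34 of 95 (35.8%), so the intervals of all 3 groups overlapped. ZNF302, with 25 reads past the end, and ZNF253, with 31, are examples of members with such peaks, the second without the condition on other genes.

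The genes through which KRAB zinc finger proteins act were all found. Each of the 23 genes of a fixed list had a transcript-end peak, against 67.2% of all protein-coding genes. The list was chosen with earlier results of these data known. Its median was 38 reads (range 11 to 86), against 24 over the 13455 protein-coding genes with such a peak. TRIM28, the KRAB partner, had 68 reads, SETDB1 had 67, and the HP1 genes CBX1, CBX3 and CBX5 had 45, 86 and 38. The chromatin remodeller CHD4 had 82 and the deacetylases HDAC1 and HDAC2 had 44 and 63. The DNA methyltransferases DNMT1 and DNMT3A had 49 and 69, whereas DNMT3B had 11, the lowest of the list. Of the HUSH complex, which silences retroelements, TASOR had 22, MPHOSPH8 28 and PPHLN1 26 reads. All 23 except DNMT3B, UHRF1 (13 reads) and SMARCAD1 (18 reads) were above the members' median of 20. As heights are not expression levels, this is no ranking of expression. Peaks that another gene could claim were kept here.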

How the data were processed

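Per the study's methods, the authors mapped the reads to GRCh38 with STAR 2.5.1b, kept reads with up to 20 placements, merged all samples and called peaks with MACS2 2.1.1 on reads extended to 100 bp. The study also took out peaks that lacked a signal hexamer and lay before a genomic stretch of A. Whether the list used here precedes that filter is not known. The deposited list gives for each peak a fold enrichment (a ratio of pileup to background), −log10 p and −log10 q values, a score and the offset of the summit. The score was not used. The pileup was solved from the deposited fold and −log10 p, and 99.97% of 19829 simulated peaks had it recovered exactly. All peaks of the list were used, with alternatives at −log10 q of 5 and 20. Genes were those of Gencode release 44 (the study used 27). Ends of transcripts marked as incomplete were left out. A gene was assigned peaks in its body or up to 4000 bp past it. Shares within length classes were weighted by the members' spread. Copies were sought with 16-base seeds on the reference. Python 3.11.15, numpy 2.4.6, pandas 2.3.3, scipy 1.17.1, pysam 0.24.0 and numba 0.67.0 were used. Members and lists were chosen with earlier results of these data known. The members named were the 10 with the tallest transcript-end peak (ties by −log10 q), the 5 with the most intronic peaks, those with the most peaks in coding exons (past ZNF568, ZNF714 and ZNF814, 31 members tied), the longest and the shortest, and 15 with a known role. Others were named after their values were seen, as examples of members without a transcript-end peak or with the most TATAAA. Treatments and replicates could not be compared.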

Additional observations from a re-analysis of the deposited data

How the results depend on the processing

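No paired analysis was possible because each peak has 1 value for all libraries together, and no replicate could be left out either. Of 66 recomputed values, 33 stayed within the limit (the 95% interval for a share, 1.5 times for a count, 10% for others), 33 moved and 0 were reversed. Most of these values describe members alone and have no order between groups that could reverse. Only the ratio per kb and the height difference compare groups, so the count of 0 says little about other orders. The share of genes with a transcript-end peak, higher in members than in other chromosome 19 genes over all peaks, was lower in members at −log10 q of 20 or more (20.9% against 26.1%). The causes were not tested, beyond fewer peaks entering by construction. With −log10 q of at least 20, 52 members had a transcript-end peak, 35.04% of member peaks were intronic and 47.0% at transcript ends, the ratio of intronic peaks per kb to other genes was 1.24, the median of intronic peaks per member 0, the difference of median height −7 reads, hexamers were at 81.2%, A stretches at 0%, near-identical copies at 7.69%, peaks in the last coding exon at 0 per kb and peaks past the end at 0% of members. At −log10 q of 5 or more, the intronic and transcript-end shares were 52.3% and 26.3%, the height difference −5 reads, hexamers at 66.7% and the last coding exon at 0.0658 per kb. Without peaks that another gene could claim, 132 members had a transcript-end peak and the intronic share was 58.0%. The ratio per kb was then 1.30 (over unchanged intron bases), the median per member 1 and the height difference −1 read. With an end window of 100 bp, the intronic and transcript-end shares were 57.7% and 17.3%. Against ZNF genes of other chromosomes, the ratio per kb was 1.09 and the height difference −1 read. Among genes with a transcript-end peak, an alternative chosen after seeing the data, the ratio was 1.20. AATAAA alone lay before 33.0% of peaks, and hexamers in a window ending at the summit before 36.1%. A stretches of 18 A followed 15.7%, and copies of 90 bases covered 24.96%. In these recomputed values, the last coding exon had 0.103 peaks per kb over all peaks and 0.0816 without near-identical copies. The 0.110 per kb given in the Results covers only members with a transcript-end peak. Past the end, members had 22.6% up to 2000 bp and 47.0% when genes with a neighbour there were kept. Leaving out the 3 read-through members, or counting incomplete transcript ends (217 members), both chosen after seeing the data, moved no value past its limit.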

Other observations

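The number of fingers did not separate members by the height of their transcript ends. Members with 13 or more fingers (n = 121) had a transcript-end peak in 88.4% (interval 81.5 to 93.0%), with a median of 20 reads at the tallest (quartiles 13.5 and 24). Those with 8 to 12 fingers (n = 94) had one in 88.3% (interval 80.2 to 93.3%), with a median of 21 reads, and those with 7 or fewer (n = 34) in 73.5% (interval 56.9 to 85.4%), with a median of 20 reads. Spearman's rho between the number of fingers and the reads was −0.097 across the 215 members with a transcript-end peak, and between length and the reads −0.051, both descriptions across genes of 1 pooled list.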
